A study of Mus musculus with 2 samples.

Results

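The genes described here encode the chains of collagen, laminin and integrin, in mouse granulosa cells profiled for FOS binding. They were taken by symbol: every protein-coding gene whose name opens with Itga, Itgb or Lam followed by a chain letter and number, or is a collagen chain symbol. The rule takes 86 of 21887 protein-coding genes, made up of 44 collagen, 11 laminin and 27 integrin chains. The other 4, Itgb1bp1, Itgb1bp2, Itgb3bp and Itgbl1, match by name and encode no collagen, laminin or integrin chain. A gene was counted as having a peak if it was the gene nearest to a peak, or the gene named by the authors as holding it.

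The cells were granulosa cells of wild-type mice, which line the ovarian follicle and support the oocyte. The females were 25 days old, had been primed with PMSG, a gonadotropin that grows follicles, and were sampled 3 h after hCG, which acts as the luteinizing hormone surge does. Of the 2 libraries in the series, 1 was immunoprecipitated with a FOS antibody, and its list of 2374 peaks is the source of every value here. The other library has no antibody in its label and was not analysed here. Whether animals were pooled is not given in the sources used here. There is 1 library in the group, so no value has an error between animals, no test between conditions exists, and the number of reads is unknown.

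Collagens, laminins and integrins form the physical link between a cell and its surroundings. Collagen IV and the laminins, each a trimer of different chains, build the sheet-like basement membrane that separates granulosa cells from the theca and its vessels. Integrins are pairs of an alpha and a beta chain that span the cell membrane and bind these proteins outside and the actin skeleton inside. At ovulation the follicle wall is broken and rebuilt, and granulosa cells change their attachments as they luteinize. FOS pairs with JUN proteins to form AP-1, a transcription factor that binds a short palindrome in DNA.

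Itgax was the 1 gene of the 86 with a peak in the authors' promoter class, so its sequence is shown first. Itgax encodes the alpha X chain (CD11c), an integrin chain known mainly from myeloid cells. The peak lay at chr7:128129088-128129536 (mm10), and its centre stood at -256 bp from the annotated start. Its score, the authors' whole number that ranks peaks in this list, was 105. The RefSeq promoter window of Itgax (GRCm38.p6, the assembly that mm10 names) shares 237 bases with the peak, chr7:128129300-128129536 on the plus strand, all of them upstream of that window's start site. Capitals mark the single match to any of the 6 motifs searched, the AP-1 letters TGANTCA.

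Itgax promoter under the peak: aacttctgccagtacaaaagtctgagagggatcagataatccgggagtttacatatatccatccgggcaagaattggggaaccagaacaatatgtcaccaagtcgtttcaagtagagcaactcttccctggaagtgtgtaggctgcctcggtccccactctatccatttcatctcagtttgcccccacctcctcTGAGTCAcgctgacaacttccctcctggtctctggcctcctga

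The AP-1 letters began at position -56, where 0 is the first transcribed base of the window. Of the 86 genes, 62 have a promoter window in the RefSeq table, with 68 windows in all, each from 250 bases before to 50 after a start. TGANTCA, which reads the same on both strands, was present in 4 of the 68 windows (5.88%), against 1486 of 21263 windows of protein-coding genes (6.99%) and 84 of the 308 such windows that lay under a FOS peak (27.3%). The others were those of Col6a1, Itga3 and Itga9. In Itga3 and Itga9 the letters lay past the start site, at positions 12 and 38. The Col6a1 match is shown beside that of Itgax because it lies upstream of the start too and has no peak. The stretches lie at chr10:76726118-76726144 on the minus strand for Col6a1 and at chr7:128129484-128129510 for Itgax, with the motif in capitals.

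Itgax, under a peak: ccacctcctcTGAGTCAcgctgacaac

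Col6a1, no peak: gctgatgctgTGACTCActcagctttg

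The peak nearest to Col6a1 lay 485 kb from the gene. The other motifs, searched on both strands, were the cyclic AMP response element TGACGTCA (1 of 68 windows, against 2.23% of all windows), the E-box CACGTG (0 of 68, against 7.84%), the NR5A letters AAGGTCA (5 of 68, against 4.08%), the RUNX letters TGTGGTT (2 of 68, against 4.71%) and the GATA letters AGATAAG (1 of 68, against 2.64%). The 5 windows with the NR5A letters were those of Col7a1, Col9a1, Col11a1, Col23a1 and Col24a1, none of which had a peak. A match of letters is not a measured binding site.

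Of the 86 genes, 16 had at least 1 FOS peak (18.6%, exact Clopper-Pearson 95% interval 11.0 to 28.4, counting error only). The share over all protein-coding genes by the same counting was 8.69%, so the genes were covered 2.14 times as often. The 16 genes lie on 12 chromosomes and shared 20 peaks. By family, 7 of 44 collagens (15.9%, interval 6.64 to 30.1), 2 of 11 laminins (18.2%, interval 2.28 to 51.8) and 7 of 27 integrins (25.9%, interval 11.1 to 46.3) had a peak, and none of the 4 genes taken by name did. The intervals of the 3 families overlap widely. No test of the list was made, and the comparison is a description of 1 peak list.

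Stricter counting lowered the share in the set and over all genes alike. With a score of at least the median, 10 of the 86 genes were covered (11.6%, against 4.75% of all genes), and with scores of 99 or more 6 were (6.98%, against 2.55%). Within 10 kb of a start the count was 8 genes (9.3%, against 3.85%) and within 50 kb it was 12 (14%, against 6.84%). Counting a peak for its nearest gene alone left 13 genes (15.1%, against 7.58%), and counting it for the gene that holds it alone left 11 (12.8%, against 5.64%). The ratio to all genes was between 2.0 and 2.74 in these 6 settings.

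Gene length moved with this share. The median span of the 86 genes was 75.3 kb, against 17.3 kb for all protein-coding genes on chromosomes with a peak, and over all genes the share rose with length. Among genes of 100 kb or more, 9 of 38 members (23.7%, interval 11.4 to 40.2) and 513 of 2429 genes in all (21.1%) had a peak. At 20 to 50 kb the shares were 2 of 23 (8.7%, interval 1.07 to 28.0) and 8.78%. Between 50 and 100 kb they were 5 of 15 (33.3%, interval 11.8 to 61.6) and 14.4%. Below 20 kb none of the 10 members had a peak (interval 0 to 30.8), against 4.9% of all such genes. In each class the members' interval held the share of all genes, but in the 3 classes under 100 kb it is wide enough to hold a ratio of 2.14 as well. The part of gene length in the overall difference was not tested.

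**Figure D1:**
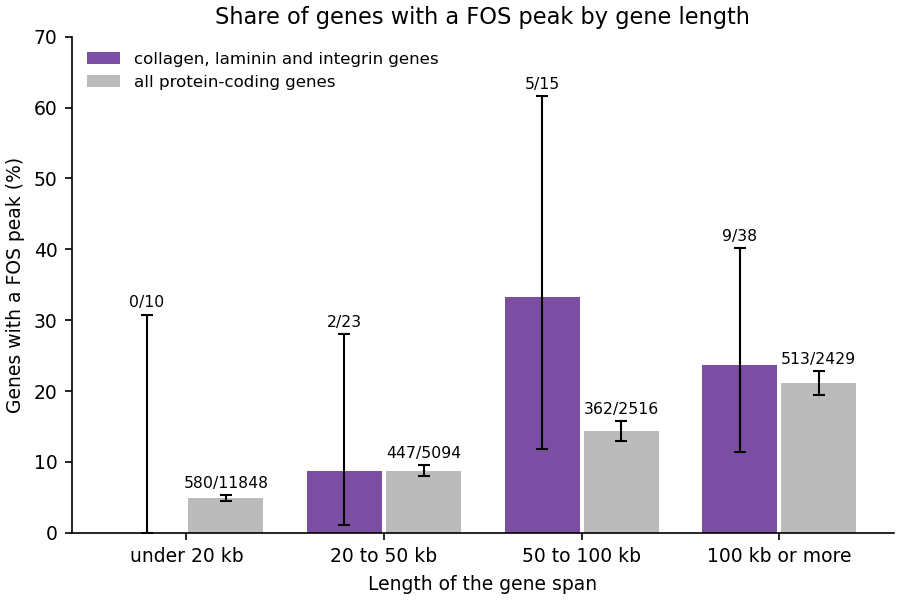
Share of genes with at least 1 FOS peak (percent, vertical axis) in 4 classes of gene span (horizontal axis), for the collagen, laminin and integrin genes (purple) and for all protein-coding genes (grey). Bars are shares with exact 95% intervals for counting error, and the number of genes with a peak over the number in the class stands above each bar. The grey bars climb from 4.9% to 21.1%, and each purple interval spans the grey bar beside it.

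The strongest peaks of the collagens were inside Col15a1. Col15a1 and Col18a1 encode the multiplexins, collagens with interrupted helices that sit in or beside basement membranes and release endostatin-like fragments. Both genes of this class had a peak (interval 15.8 to 100%, against 8.69% of all genes), a count taken after the values were seen. They span 106 kb and 114 kb, and 21.1% of all genes of 100 kb or more had a peak. In Col15a1 a peak scored 192 lay in intron 39 of 39 at chr4:47310798-47311277, and 1 of score 159 lay in intron 28 of 39 at chr4:47293832-47294212, with 16.6 kb between them. Rank 104 of 2374 made the first the highest of the 20 peaks. Both lay towards the end of the gene, 103.4 kb and 86.4 kb from its 5′ end, and the start site nearest to each was that of the neighbour Tgfbr1, a TGF-beta receptor, at 42.3 kb and 59.3 kb. Col18a1 had an intergenic peak of score 51, 44.9 kb upstream of its start. The multiplexin count therefore rests on 1 gene by position inside it and on 1 by nearness.

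Col4a1, which encodes a chain of the collagen IV network that all basement membranes contain, had a peak, scored 104, in intron 2 of 51 at chr8:11259942-11260286, 52.7 kb into the gene. Its partner chain gene Col4a2 lies head to head with it, the RefSeq spans sharing 85 bp (-85 as a gap), and had no peak assigned. The Col4a1 peak was also the nearest to Col4a2, at 52.5 kb. The other 4 genes of the class, Col4a3 to Col4a6, had no peak, and the nearest lay between 112 kb (Col4a3) and 953 kb (Col4a6) away.

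Fibril-associated and beaded-filament collagens made up most of the rest. Col16a1, a fibril-associated collagen, had a peak, scored 95, in intron 2 of 69, 2.8 kb past its start at chr4:130050453-130050824. Col14a1, another collagen that decorates fibrils, had a peak of score 93 that lay 76.5 kb upstream, inside intron 8 of 8 of Deptor. The remaining 7 fibril-associated genes had none. Col6a3, the long alpha 3 chain of the beaded filaments of collagen VI, had a peak, scored 60, in intron 1 of 40, 9.0 kb past the start. Its trimer partners Col6a1 and Col6a2 had no peak within 485 kb and 588 kb. Col17a1, a membrane-spanning collagen of epithelial hemidesmosomes, had a peak of score 57 between genes, 7.8 kb upstream.

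Of the 11 fibrillar collagen genes 0 had a peak, a count taken after the values were seen, and its interval of 0 to 28.5% holds the 8.69% of all genes. They include Col1a1, Col1a2 and Col3a1, the bulk collagens of connective tissue and of the theca. The distance from the gene to the nearest peak ran from 54.3 kb (Col11a2) to 1790 kb (Col27a1), and was 164 kb for Col1a1, 1140 kb for Col1a2 and 1500 kb for Col3a1. The class has a median span of 45.1 kb, with 5 genes of 100 kb or more, against 114 kb for all 44 collagens.

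Of the 5 laminin alpha chains 2 had a peak, and of the 3 beta and 3 gamma chains 0 did, counts too small to tell the chains apart. Lama1, the alpha 1 chain found in early and some epithelial basement membranes, had a peak scored 106 in intron 1 of 62, 9.4 kb past the start, at chr17:67706361-67706931. Lama2, the alpha 2 chain best known from muscle and nerve, also had 1 peak scored 106, within intron 57 of 63 at chr10:26995863-26996389. Lama2 spans 636 kb, the peak lay 621.1 kb from its 5′ end, and the nearest start was that of Arhgap18 at 223.6 kb. With peaks assigned to the nearest gene alone, Lama1 was the 1 laminin left of 11 (9.09%, against 7.58% of all genes). Of the chains that pair with these, the nearest peak to Lamb1 was 94.0 kb from the gene and that to Lamc1 1810 kb.

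Among the integrins, peaks lay at the gene of the alpha V chain and at genes of beta chains that pair with it. Itgav encodes the alpha V chain, which recognizes the RGD motif of fibronectin and vitronectin, and it had 2 peaks. The stronger, of score 151 (rank 227), was intergenic and 9.5 kb upstream at chr2:83714741-83715148. The weaker, of score 46, lay in intron 1 of 29, 4.1 kb past the start and 13.2 kb from the first. Among the beta chains that pair with alpha V, Itgb5 had a peak, scored 28, in intron 1 of 14, 7.4 kb past the start at chr16:33836653-33837386. At 734 bp it was the widest of the 20 peaks while sharing the lowest score. Itgb6 had a peak of score 36 that lay 141.3 kb upstream of the annotated start, inside Rbms1, and 92.3 kb from the RefSeq span of the gene. Itgb3 and Itgb8, further partners of alpha V, had none, with the nearest peaks 224 kb and 1770 kb away. Nor did Itgb1, which pairs with alpha V and with many other alpha chains. The nearest peak to it was 1410 kb away.

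Itga2, the alpha 2 chain of a collagen receptor, had 3 peaks, the most of any of the 86 genes. The strongest, of score 98, lay 1.8 kb upstream at chr13:114933653-114933979 and was classed as intergenic. The others scored 42 in intron 2 of 29 and 33 in intron 7 of 29, 36.0 kb and 55.5 kb past the start. The neighbouring collagen-receptor gene Itga1 had no peak assigned, and the upstream peak of Itga2 lay 24.1 kb from it. Itga9, the alpha 9 chain that binds tenascin and other ligands, had a peak of score 28 that lay 26.2 kb upstream in the last intron of Golga4. None of the 3 laminin-binding alpha chains, Itga3, Itga6 and Itga7, had a peak, and the nearest were 40.3 kb, 142 kb and 343 kb away.

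The leukocyte chains Itgam and Itgax lie side by side on chromosome 7 with 11034 bp between them, and 2 peaks fell there. Besides the promoter peak of Itgax, a peak of score 80 at chr7:128119095-128119677 was placed in the end class of Itgam, which encodes the alpha M chain (CD11b) of macrophages and neutrophils. That peak lay 604 bp (0.604 kb) past the RefSeq end of Itgam and 10.2 kb upstream of Itgax, and 9.41 kb from the promoter peak. It counts for both genes, and with nearest genes alone Itgam drops out. The next gene of the cluster, Itgad, lay 44.4 kb from the promoter peak, and Itgb2, the beta chain shared by these integrins, 278 kb from any peak. Of 6 genes that mark immune cells, 2 had a peak (interval 4.33 to 77.7%, against 8.69% of all genes), namely Itgam and Itgax, which share a peak. By nearest gene alone it was 1 of 6, and Ptprc, Adgre1, Cd68 and Csf1r had none. Markers of other cells had a peak at 6 of 12 granulosa genes (interval 21.1 to 78.9%), 2 of 8 theca genes (3.19 to 65.1%), 1 of 5 endothelial genes (0.505 to 71.6%) and 0 of 6 oocyte genes (0 to 45.9%). The 2 on the theca list were Cyp11a1 and Cyp17a1, the latter with its peak inside Wbp1l. Whether the listed genes, Cyp11a1 among them, are particular to their cell type was not tested. Col1a1, Col1a2 and Col3a1, on that list without a peak, are also genes of the set. The 6 granulosa genes were Cyp19a1, Inhba, Lhcgr, Nr5a2, Esr2 and Hsd17b1. The best peaks of Inhba, Nr5a2 and Lhcgr were intergenic, 724 kb, 278.2 kb and 72.7 kb from the start, and that of Hsd17b1 scored 19. With scores at or above the median the counts were 3 of 12 granulosa, 1 of 8 theca, 2 of 6 immune and 0 of 5 endothelial genes, against 4.75% of all genes. By nearest gene alone the endothelial count was 0 of 5, and the granulosa and theca counts did not change. A peak is not a measure of expression, so these counts do not show which cells were in the sample, and the part of other cells in the Itgax and Itgam peaks was not tested.

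**Figure D2:**
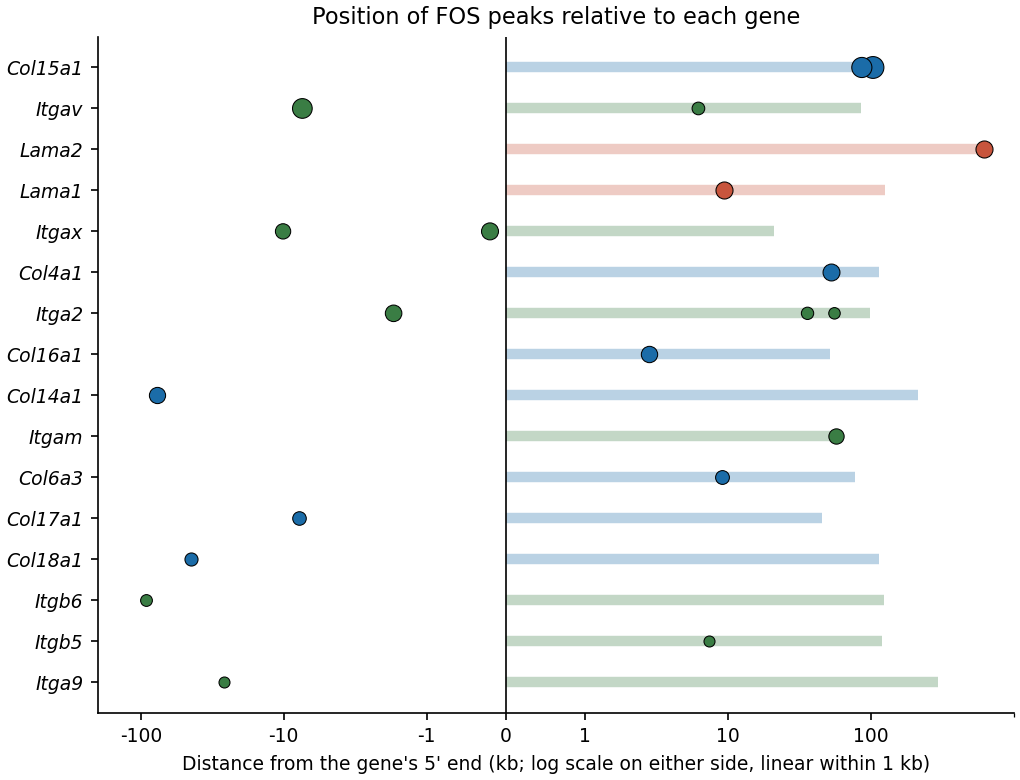
Position of each FOS peak (points, area growing with the peak score) relative to the 5′ end of its gene (kb, logarithmic beyond 1 kb and linear within it), with the gene span as a pale bar, for collagens (blue), laminins (red) and integrins (green). Distances are to the 5′ end of the RefSeq span, and for Lama1 and Col14a1 to the authors' start site. Peaks of Col15a1 and Lama2 stand towards the far end of the span and that of Itgax at the start. Others stand in the middle, as in Col4a1, or well upstream, as for Col18a1 and Itgb6.

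As a group the 20 peaks were mostly intronic. Introns held 14 of them (70%, against 44.7% of all 2374 peaks), 4 were intergenic (20% against 35.4%), 1 was a promoter peak (5.0% against 15.2%) and 1 lay at a transcription end. Of the 14 intron peaks 11 lay in a gene of the set and 3 in a neighbouring gene, in Deptor, Rbms1 and Golga4. Being inside a gene of the set was one of the ways to be counted, which favours introns. Among the 17 peaks counted by nearest gene, 11 were in introns (64.7%), and these include the 3 in Deptor, Rbms1 and Golga4. The genes of the set also have long spans (median 75.3 kb, against 17.3 kb for all protein-coding genes on chromosomes with a peak). The part of span in the intron share was not tested. In the 11 intron peaks within the set, 4 were in intron 1 (36.4%, against 40.9% of all intron peaks). The median distance to the nearest start was 18.2 kb both for the 20 peaks and for all peaks.

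Scores ran from 28 to 192 with a median of 86.5 (95% interval of the median from order statistics 46 to 105), against 67 for all peaks. This order turned with the counting: over the 17 peaks assigned by nearest gene the median was 60.0, below that of all peaks. The 3 peaks that differ, at Col15a1 and Lama2, scored 192, 159 and 106. By family the median was 94.0 over 8 collagen peaks, 106 over 2 laminin peaks and 44 over 10 integrin peaks. Of the 20 peaks, 7 scored at or above 99, the upper quartile of the list against 618 of all 2374 peaks. All 3 peaks at integrin beta chains and at Itga9 scored 36 or less. Several peaks were held by 4 of the 16 genes (25.0%, against 16.7% of all genes with a peak): Itga2, Itgav, Itgax and Col15a1. In Itga2 and Itgav the peak upstream of the start outscored those inside the gene.

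**Figure D3:**
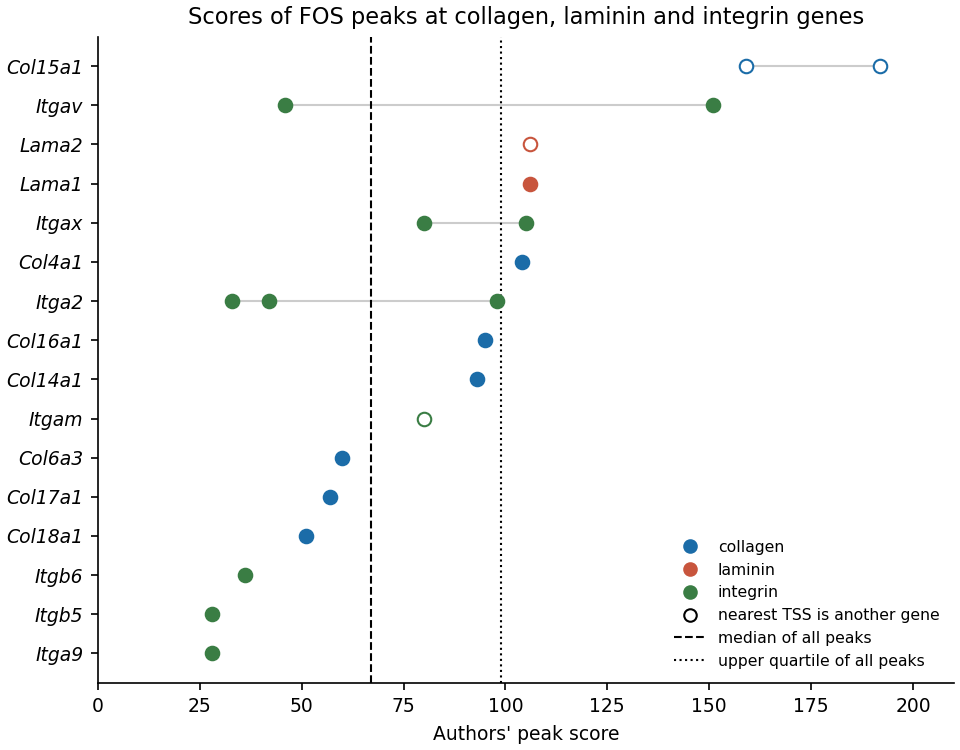
Authors' peak score (horizontal axis, no unit) of each FOS peak at the 16 genes (rows), with collagens in blue, laminins in red and integrins in green. Open points are peaks whose nearest start site belongs to another gene, grey lines join peaks of 1 gene, and the peak between Itgam and Itgax appears in both rows. The dashed line is the median of all 2374 peaks (67) and the dotted line their upper quartile (99). The Col15a1 peaks and the upstream Itgav peak stand to the right of the rest.

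The other 70 genes had no peak by either way of counting. The median gap from these genes to the nearest peak was 374 kb, and for 16 of them it was over 1 Mb. Lack of a peak itself selects for large gaps. Over all 86 genes the median gap was 165 kb, below the 279 kb of all protein-coding genes on chromosomes with a peak. Of the 70, 9 lay within 50 kb of a peak that was assigned elsewhere. The closest were Col8a2, a short-chain collagen, 7.06 kb from a peak of score 53 assigned to Adprhl2, Itgbl1 at 11.9 kb, and Itgb4, the beta chain of hemidesmosomes, 15.2 kb from a peak of score 155 assigned to H3f3b. Col23a1, a membrane-spanning collagen, was 24.7 kb and Itga10, a collagen-receptor chain, 32.7 kb from one. With any peak within 50 kb of the span counted, 23 of the 86 genes were covered (26.7%, interval 17.8 to 37.4, against 18.2% of all genes). This count held 11 of 27 integrins (40.7%, interval 22.4 to 61.2), 9 of 44 collagens (20.5%) and 2 of 11 laminins (18.2%). Neighbouring integrin genes reached the same peaks: Itga1 was counted through a peak of Itga2, and Itgam and Itgad through peaks of Itgax. The interval treats genes as independent, which these are not. Integrins had the shortest gaps, with a median of 70.2 kb, against 338 kb for collagens, 305 kb for laminins and 279 kb for all protein-coding genes on chromosomes with a peak. They were also the shortest of the families, with a median span of 55.9 kb.

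**Figure D4:**
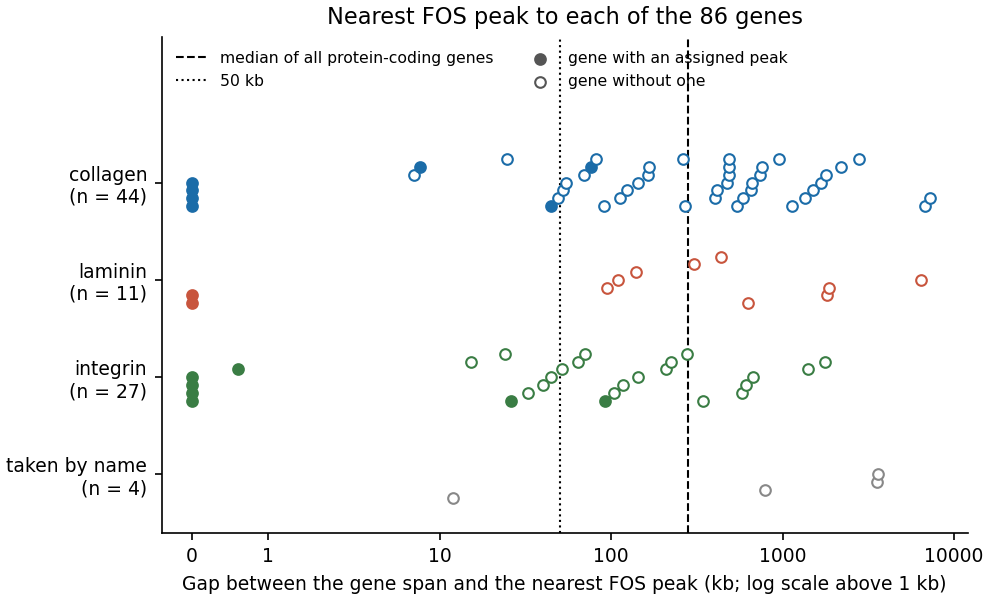
Gap between the span of each of the 86 genes and the nearest FOS peak (kb, logarithmic above 1 kb), by family, with genes that have an assigned peak filled and the others open. Points are spread vertically for legibility alone. The dashed line is the median of all protein-coding genes (279 kb) and the dotted line marks 50 kb. Integrin points gather to the left of the dashed line, and collagen points reach 7190 kb.

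Genes that work with these proteins were listed in 6 groups, and 14 of the 66 had a peak (21.2%, interval 12.1 to 33.0, against 8.69% of all genes). The median span of the 66 was 39.1 kb. The highest shares were on the cell side of the link, though differences between groups were not tested. Of 22 adaptors and kinases at integrin tails 7 had a peak (31.8%, interval 13.9 to 54.9). Of 9 collagen and laminin receptors other than integrins 4 did (44.4%, interval 13.7 to 78.8). These intervals overlap those of the other groups. With scores at or above the median the counts were 3 of 22 and 2 of 9, against 4.75% of all genes. Gene spans were not compared between groups. Of the adaptors, Tns1, a tensin that ties integrins to actin, had 5 peaks with scores of 134, 130, 58, 51 and 44. Fermt2, a kindlin that activates integrins, had a peak scored 114 in an intron, and Parva, a parvin that links integrin-linked kinase to actin, had 2 of score 71 and 70. Bcar1 and Tns3 had 1 peak of score 51 each. Ddr1, a collagen-binding receptor kinase, had an intron 1 peak scored 179, 6.0 kb past its start. The syndecan genes Sdc4, Sdc1 and Sdc2 had best scores of 124, 66 and 38. The Sdc4 peak lay in intron 1, 4.1 kb past the start. The best Sdc1 peak was intergenic, 55.9 kb from the start, and the best Sdc2 peak lay 313.4 kb upstream, inside Sema5a. Those of Sdc1 and Sdc2 were thus assigned by nearness alone.

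Shares were lower than on the cell side for genes of collagen making and of the surrounding matrix, without a test between groups. Of 15 genes for making and cross-linking collagen 3 had a peak: Lox, which cross-links collagen and elastin, with a peak of score 82 between genes, 29.2 kb upstream, Plod2, a lysyl hydroxylase, with 1 of score 60 in an intron, and Bmp1, which trims procollagen, with 1 of score 24. By nearest gene alone Lox was the 1 that counted (6.67%, against 7.58% of all genes). None of the 4 nidogen and proteoglycan genes, the 10 other adhesive matrix genes (Fn1 and Tnc among them) or the 6 matrix protease and inhibitor genes had a peak. The exact 95% intervals of these 3 groups reach up to 60.2%, 30.8% and 45.9%, and each holds the 8.69% of all genes.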

How the data were processed

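FOS ChIP-seq was measured in granulosa cells, and 1 of the 2 libraries gave the deposited peak table. Per the file headers, the authors annotated a narrowPeak file with HOMER annotatePeaks. MACS2 2.2.7.1, deepTools 3.5.1, BWA, Trim Galore and the mm10 build are named in the submitters' processing notes. For the peak threshold and the control library the sources used here give nothing. The deposited peak score has no stated scale and was used to rank peaks within this list alone. Depth is unknown.

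Names were matched to RefSeq (GRCm38.p6) by accession, symbol or older symbol. All 1965 nearest-gene names and all but 3 of 1314 host names matched. For 1531 of 1802 peaks (85.0%) the authors' distance matched a RefSeq start within 5 bp. Shares carry exact 95% intervals. With 1 library no test was run. The counting was tested on simulated data. Python 3.11.15, pandas 2.3.3, scipy 1.17.1 and matplotlib 3.10.9 were used.

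The members, lists and rules were chosen with earlier results of these data known. Every gene of the set with a peak is named, as are genes of partner chains without one and up to 4 partner genes per group by score (5 at a tie). Classes of chains, the fibrillar count, Itgb2, Col8a2, Itgb4, Itgbl1, Col23a1 and Itga10 were picked with their values in view. Other settings varied the assignment of peaks, the score threshold, the distance to the start, gene length and the 4 genes taken by name. Host gene assignment alone and gene length were added after seeing the data.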

Additional observations from a re-analysis of the deposited data

How the results depend on the processing

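The share of genes with a peak (18.6%) moved outside its interval in 5 settings, all but the gene length classes being stricter subsets of the peaks. It was 6.98% with scores of 99 or more (2.55% of all genes) and 9.3% with peaks within 10 kb of the TSS (3.85% of all genes). By gene length, added after seeing the data, it was 0% under 20 kb, 8.7% at 20 to 50 kb and 33.3% at 50 to 100 kb. It was 15.1% with nearest genes alone, 12.8% with host genes alone (5.64% of all genes), 11.6% with scores at or above the median (4.75% of all genes) and 19.5% without the 4 genes taken by name. The partner share of 21.2% was 9.09% with scores at or above the median. The other values by family, class and median score stayed within their intervals, which are wide, and this says little about stability. No paired analysis was possible because each group has 1 library and 1 of them gave values. The unknown depth limits what an absent peak shows.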
